A study of Mus musculus with 4 samples.

Results

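Genes of mitosis were examined in J774M, a line of mouse cells listed in the labels as myeloid-derived suppressor cells, a kind of immature myeloid cell that dampens T cell responses. The module holds 47 genes of chromosome condensation, the kinetochore, the spindle checkpoint and cell division, chosen by their symbols, out of 26246 genes that the arrays could name. Of these, 46 were tested. The remaining gene, Ncapg, shares its probe set with the neighbouring gene Lcorl in the platform annotation and was left out of the tests. Each tested gene had 1 probe set. The study had 4 whole-transcript Affymetrix arrays, 2 of control cells and 2 of cells kept in 10 uM NC06, which inhibits neutral ceramidase, over 24 h. All cells were grown in RPMI medium with fetal bovine serum. The sources used here do not give what the control cells received in place of NC06. The labels describe no genetic change, and they leave unsaid whether replicates were grown as separate cultures. The p-values therefore speak only for the spread among these samples, possibly a technical one.

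Cells enter mitosis when cyclin-dependent kinase 1, bound to A-type and B-type cyclins and released from inhibition by CDC25 phosphatases, phosphorylates many substrates. Condensin then compacts the chromosomes, kinetochores assembled on the centromeres attach them to the spindle, and the spindle assembly checkpoint holds back the anaphase-promoting complex until every chromosome is attached. Most of these genes are transcribed late in the cell cycle through promoter elements bound by the MuvB complex, which acts with B-MYB and FOXM1 as an activator and with p130 and E2F4, as DREAM, as a repressor. In myeloid cells they are known as marks of proliferating progenitors and of cycling cell lines.

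The marker genes of the cell type were checked first. All 8 macrophage markers, among them Csf1r, Cd68 and Itgam, lay above the median signal, and their mean was 10.15 and 10.16 log2 in control and 10.64 in both NC06 samples. Of 10 neutrophil markers 4 lay above the median signal, including Ly6g, with list means of 4.71 and 4.82 in control and 5.21 and 5.10 in NC06 cells. T cell markers (1 of 5 above the median signal, 4.30 to 4.33 in control and 4.38 to 4.42 in NC06 cells), fibroblast and epithelial markers (2 of 5, 4.67 to 4.69 and 4.83 to 4.91) and B cell markers (0 of 5, 4.09 to 4.21 and 4.07 to 4.17) were low. Only 2 of 5 erythroid markers were measured, both below the median signal, with means of 3.47 to 3.79 in control and 3.56 to 3.60 in NC06 cells. The macrophage and neutrophil marker means differed between the groups in the direction opposite to the mitotic genes described next. Single markers were split. Without overlap of the groups, 7 of the 8 macrophage markers were higher in NC06 cells and 1, Fcgr1, was lower. Of the 10 neutrophil markers, 4 were higher and 1 was lower without overlap, and 4 had a negative change. Changes in the neutrophil list ran from -0.28 log2 for Ngp to 1.48 for S100a8. The part of these markers in the results below was not tested.

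Promoters of the mitotic genes were searched for elements that the choice of members did not use. Sequences from 250 bases before to 50 bases after the annotated start, from RefSeq on build GRCm38.p6, were found for 39 of the 47 genes. The table held none for Ccna2, Cdc25c, Aurkb, Incenp, Spc24, Smc4, Kif20a and Tpx2. The letters searched were TTTGAA, the canonical cell cycle genes homology region (CHR) bound by MuvB, and CCAAT, the box bound by NF-Y, each on both strands. The promoters below belong to 6 members that hold the CHR letters and had the smallest p in the comparison of NC06 with control, in that order. Capitals mark TTTGAA or its reverse complement TTCAAA and CCAAT or its reverse complement ATTGG.
Ndc80, chr17:71526808-71527107, minus strand: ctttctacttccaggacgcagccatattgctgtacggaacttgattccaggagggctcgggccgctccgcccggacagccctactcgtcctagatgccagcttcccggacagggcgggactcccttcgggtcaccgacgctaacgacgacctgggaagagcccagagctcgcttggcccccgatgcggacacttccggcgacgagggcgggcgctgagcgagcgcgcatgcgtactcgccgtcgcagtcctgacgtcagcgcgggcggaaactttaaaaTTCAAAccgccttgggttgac
Bub1b, chr2:118597961-118598260, plus strand: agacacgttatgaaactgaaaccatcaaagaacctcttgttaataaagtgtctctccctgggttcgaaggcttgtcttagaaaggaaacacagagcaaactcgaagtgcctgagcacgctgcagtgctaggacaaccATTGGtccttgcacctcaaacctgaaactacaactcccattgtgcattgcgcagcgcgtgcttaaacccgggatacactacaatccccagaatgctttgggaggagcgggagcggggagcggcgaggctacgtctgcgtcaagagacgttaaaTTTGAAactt
Kif2c, chr4:117178723-117179022, minus strand: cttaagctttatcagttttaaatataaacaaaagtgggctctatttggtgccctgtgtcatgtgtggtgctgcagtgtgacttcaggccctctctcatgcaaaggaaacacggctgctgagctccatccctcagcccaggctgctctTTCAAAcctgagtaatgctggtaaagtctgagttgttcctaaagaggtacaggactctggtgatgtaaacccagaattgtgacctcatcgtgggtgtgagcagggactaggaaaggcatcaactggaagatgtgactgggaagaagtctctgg
Cdc20, chr4:118437294-118437593, minus strand: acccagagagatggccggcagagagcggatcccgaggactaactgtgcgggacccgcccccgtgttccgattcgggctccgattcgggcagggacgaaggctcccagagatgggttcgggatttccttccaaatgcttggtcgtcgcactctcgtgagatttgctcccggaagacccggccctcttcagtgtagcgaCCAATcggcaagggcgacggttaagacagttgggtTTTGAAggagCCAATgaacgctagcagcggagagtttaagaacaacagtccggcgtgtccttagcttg
Espl1, chr15:102296043-102296342, plus strand: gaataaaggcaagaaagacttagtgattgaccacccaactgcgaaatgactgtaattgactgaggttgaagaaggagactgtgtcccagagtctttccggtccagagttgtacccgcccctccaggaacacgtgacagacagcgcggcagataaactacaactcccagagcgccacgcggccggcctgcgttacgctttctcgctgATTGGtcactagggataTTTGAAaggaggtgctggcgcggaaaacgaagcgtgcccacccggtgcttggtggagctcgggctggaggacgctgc
Plk1, chr7:122159185-122159484, plus strand: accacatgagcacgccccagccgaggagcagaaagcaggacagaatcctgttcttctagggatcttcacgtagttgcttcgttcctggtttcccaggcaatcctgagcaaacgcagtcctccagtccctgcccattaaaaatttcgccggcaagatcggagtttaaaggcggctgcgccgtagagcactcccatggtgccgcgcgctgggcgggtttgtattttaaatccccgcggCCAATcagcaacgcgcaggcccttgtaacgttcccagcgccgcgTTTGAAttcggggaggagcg
In Cdc20 and Espl1 the CHR letters begin 18 and 27 bases before the start, and a CCAAT box begins 53 and 44 bases before it. In Ndc80, Bub1b and Plk1 the CHR letters lie after the annotated start, from bases 30, 41 and 31, and in Kif2c they begin 103 bases before it.

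The CHR letters were found in 26 of the 39 mitotic promoters (66.7%), against 20.2% of 27025 genes with a promoter in the table. They were found in 14.1% of the 9748 such genes whose array signal lay above the median, and in 7 of 32 DNA replication genes (21.9%). CCAAT was found in 31 of the 39 (79.5%), against 41.1% of all genes and 18 of 32 DNA replication genes (56.2%). A promoter with both motifs occurred in 23 of the 39 (59.0%) and in 8.0% of all genes. Of 69 CCAAT matches in the mitotic promoters 44 lay within 100 bases before the start, whereas 17 of 37 CHR matches lay after it. Matches were counted per listed promoter, so a site shared by overlapping promoters of a gene, as in Ect2, Prc1 and Bub3, was counted in each. In these promoters 1 CHR match overlapped a CCAAT match, and 4 genes had several listed promoters, of which any match was counted. A match is a description of letters and does not show that the site is used.

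**Figure D1:**
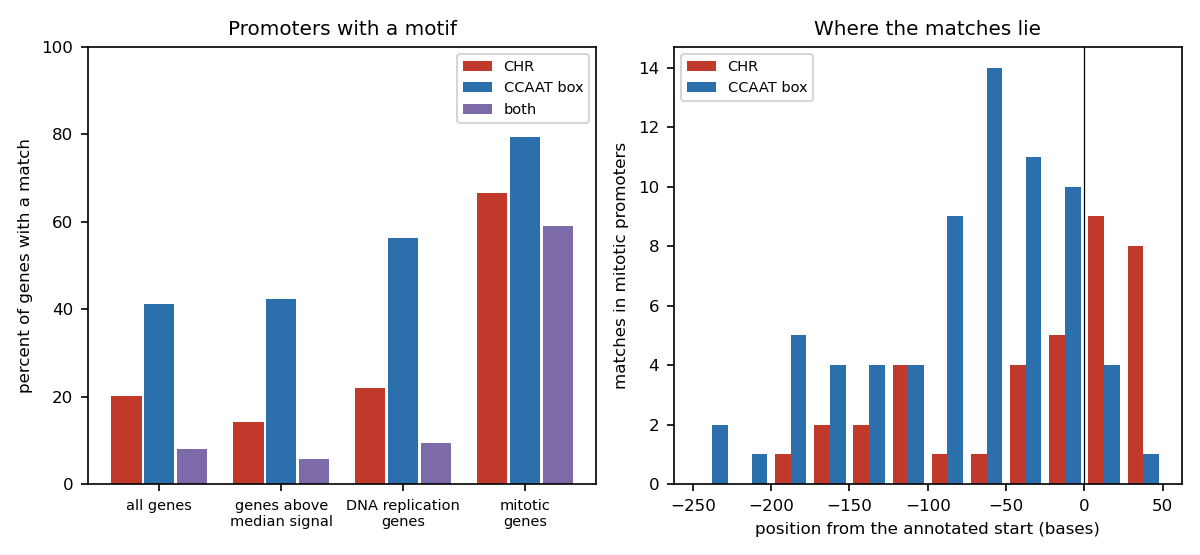
The left panel plots the percent of genes whose promoter holds the CHR letters, a CCAAT box or a promoter with both, for all genes, genes above the median signal, DNA replication genes and mitotic genes. The right panel counts the matches in promoters of the mitotic genes by position from the annotated start in bins of 25 bases. The CHR share is 66.7% in the mitotic genes and 20.2% in all genes, and the CCAAT matches gather in the 100 bases before the start.

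The comparison of NC06 with control asks how the ceramidase inhibitor alters gene expression in these cells, and here how it bears on the genes of division. Most mitotic genes had a slightly lower signal in NC06 cells, and none of them passed the adjusted threshold. The median change, NC06 minus control, was -0.13 log2 over the 46 genes, or 0.913-fold, beside 0.002 over all 26246 genes and -0.025 over the 13123 genes above the median signal, where all 46 mitotic genes lay. The changes ran from -0.48 for Spc24 to 0.076 for Mki67, and 42 of 46 were negative, beside 49.5% of all genes and 55.5% of the brighter ones. Each NC06 array lay below each control array in 32 of the 46 genes (69.6%) and above them in 0. The same was seen, downward, in 24.4% of all genes and 35.1% of the brighter ones, and upward in 23.3% and 25.1%. The mean of the 46 genes was 9.73 and 9.74 log2 in control and 9.58 and 9.63 in NC06 cells. In bulk samples, fewer cells in mitosis and less of each RNA per cell cannot be told apart.

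In the limma fit 0 of the 46 genes passed an adjusted p of 0.05, as did 0 of all genes (0%), and the adjusted p of the mitotic genes ran from 0.191 upward. At an unadjusted p under 0.05 there were 7 lower and 0 higher members. When each array was left out in turn, which leaves 1 array in a group, that count of lower members fell or stayed the same. The median change of the members then ran from -0.145 to -0.106 log2. The 7 are 15.2% of the members, beside 7.52% of all genes lower and 7.79% higher. Over the brighter genes alone the same fit placed 11.2% on the lower and 8.89% on the higher side. With a variance prior that follows the signal and resists outliers, 7 members were called lower at an adjusted p under 0.05 and 23 at an unadjusted one. In that fit 3.12% and 11.1% of all genes were lower and 2.44% and 8.27% higher. With the genes below the median signal left out of the fit, 3 members were called lower and 16 had an unadjusted p under 0.05 on that side. There 2.93% and 17.3% of the genes were lower and 3.44% and 12.4% higher. Of the 46, 15 had a p under 0.05 in the authors' deposited table, each with a ratio below 1. That p was reached, with a ratio below and above 1, by 7.38% and 6.22% of all named genes and by 12.6% and 8.66% of the brighter ones.

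A change below -0.3 log2 was seen in 4 members (8.70%) and in 7.42% of the brighter genes, while 38 members (82.6%) and 48.0% of the brighter genes lay between -0.3 and 0. No member (0 of 46) had a change above 0.1 log2, which 26.2% of the brighter genes had. The 10th and 90th percentiles of the change were -0.27 and -0.006 log2 in the members and -0.26 and 0.25 in the brighter genes. Most members thus had small negative changes, and few had large ones.

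**Figure D2:**
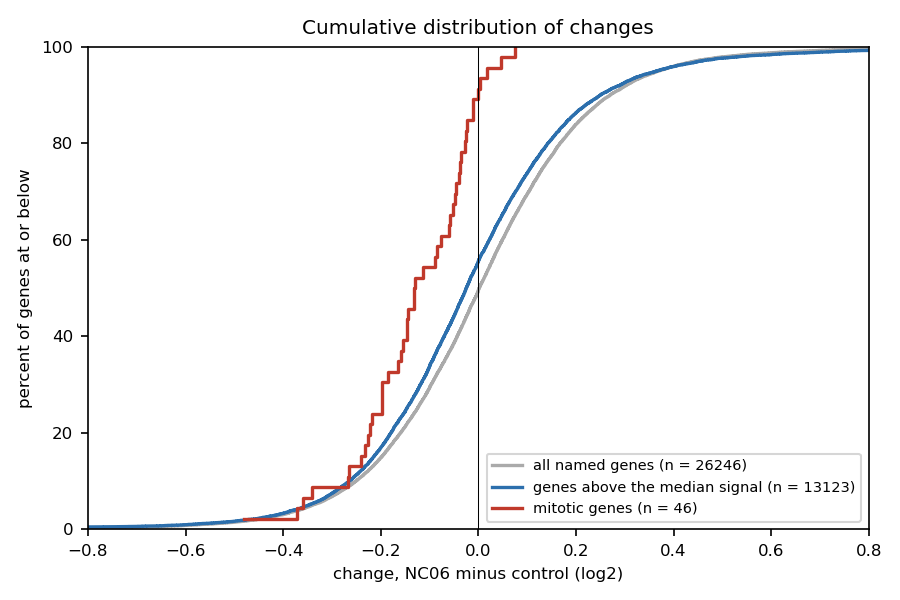
Cumulative percent of genes, on the vertical axis, by change between NC06 and control in log2, on the horizontal axis, for all named genes, the genes above the median signal and the 46 mitotic genes. The line of the mitotic genes lies close to that of the genes above the median signal up to about -0.27 log2. From there on it lies above that line, reaching its end at 0.076.

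The 2 arrays of each group were also set side by side. The difference between array 1 of the groups and that between array 2 use no array in common. Their medians over the mitotic genes were -0.13 and -0.12 log2, and both were negative in 36 genes and both positive in 0. Both were negative in 41.3% of the brighter genes. Pearson's r between these differences was 0.579 and Spearman's rho 0.622 across the 46 genes, which are not independent and share their arrays. Over the 13123 brighter genes r was 0.668 and rho 0.574. Arrays of a group differed in both groups. NC06 replicate 1 lay below NC06 replicate 2 in 30 of the 46 genes, with a gap of up to 0.31 log2, for Mki67. Control replicate 1 lay below control replicate 2 in 27, with a gap of up to 0.20, for Cenpf. The median gap was 0.049 between the NC06 and 0.044 between the control arrays. In 30 of the 46 genes the change was larger than the gap within either group, and the share of other genes that met this was not counted.

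**Figure D3:**
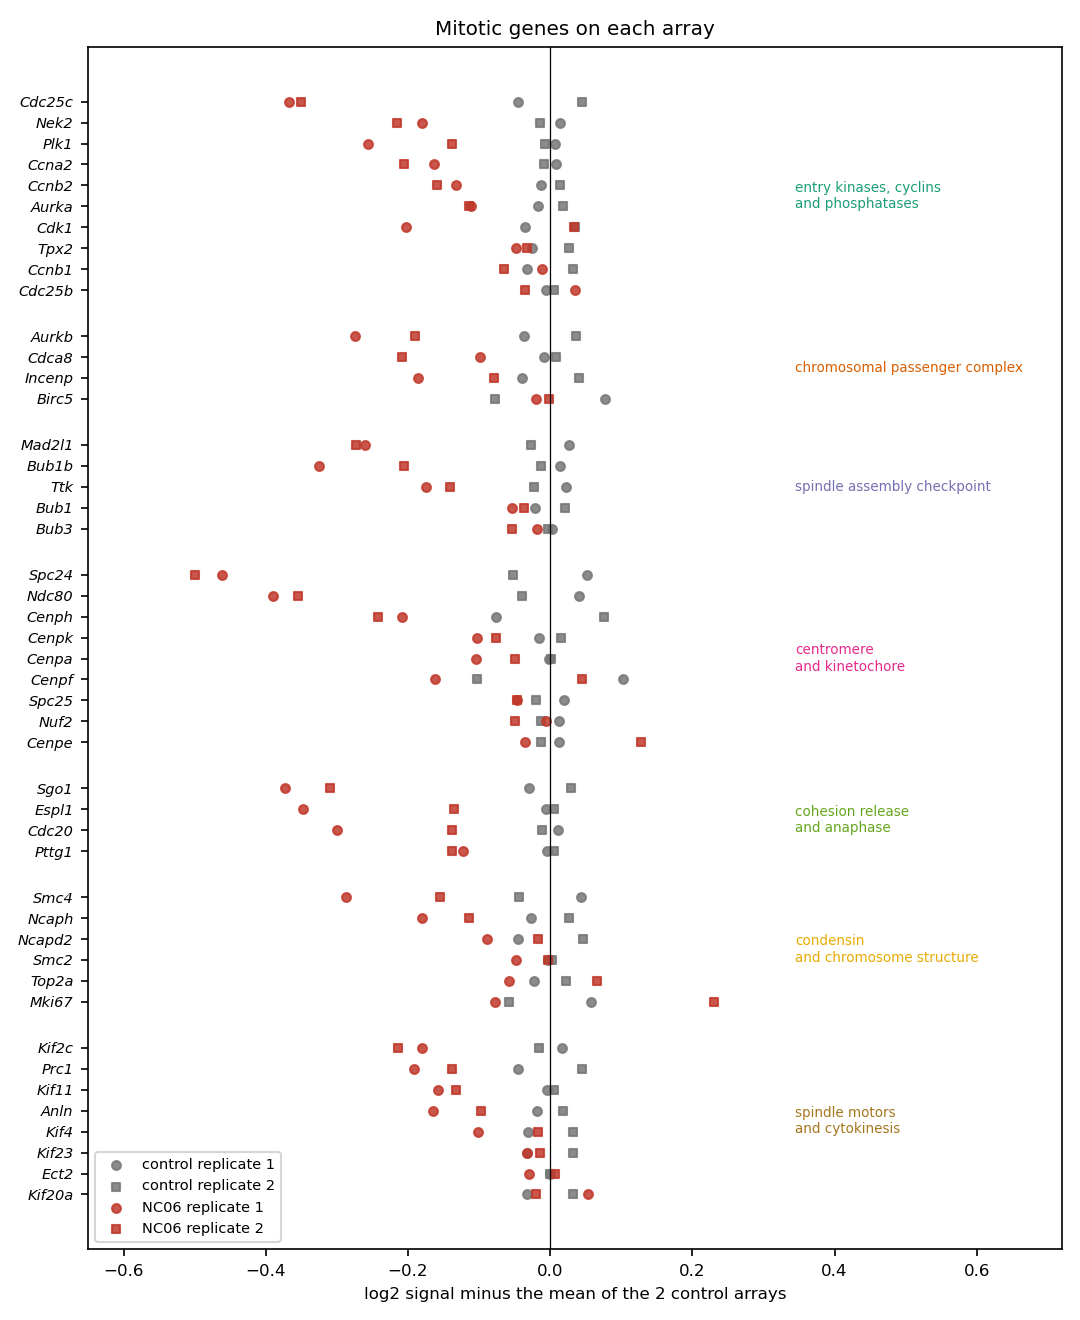
Log2 signal of each mitotic gene on each array, horizontal axis, as the difference from the mean of the 2 control arrays. Grey marks are control and red marks NC06 arrays, circles replicate 1 and squares replicate 2, and genes are grouped by role. Both red marks lie left of both grey marks in 32 of 46 genes, and the 2 NC06 marks of Mki67 lie 0.31 log2 apart.

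Among the genes that drive entry into mitosis, the 10 changes ran from -0.36 to -0.0002 log2 with a median of -0.13. In 7 the groups did not overlap, on the lower side, beside 35.1% of the brighter genes. The lowest was that of Cdc25c, a phosphatase that activates CDK1. Its signal was 7.64 and 7.73 log2 in control and 7.32 and 7.33 in NC06 cells, a change of -0.36 (SE 0.080, 95% interval -0.58 to -0.14, limma adjusted p = 0.227). The groups did not overlap, and the NC06 arrays lay close together. Its paralog Cdc25b, which acts at the start of mitosis, had 8.66 and 8.67 in control and 8.70 and 8.63 in NC06 cells, with overlapping groups and a 95% interval from -0.21 to 0.21. Plk1, the Polo-like kinase of centrosome maturation and cytokinesis, had the highest array signal of these genes, which does not rank transcript levels between genes. It read 11.15 and 11.13 in control and 10.88 and 11.00 in NC06 cells, a change of -0.20 (SE 0.084, adjusted p = 0.369). Ccna2, which encodes cyclin A2, had 10.90 and 10.89 against 10.73 and 10.69, a change of -0.18 (SE 0.076, adjusted p = 0.359). In both genes each NC06 array lay below each control array.

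The B-type cyclins, the partners of CDK1 in mitosis, differed in their values. Ccnb2 had a change of -0.15 (SE 0.075) without overlap of the groups, and Ccnb1 had a change of -0.038 (SE 0.080) with overlap. Cdk1 itself read 9.32 and 9.39 in control and 9.15 and 9.39 in NC06 cells. Its change of -0.085 (95% interval -0.39 to 0.22) rested on NC06 replicate 1, and without that array it was 0.033. Nek2, a kinase of centrosome separation, had 9.63 and 9.60 against 9.44 and 9.40, a change of -0.20 (SE 0.076, adjusted p = 0.336), again without overlap. Aurka, the centrosomal Aurora kinase, had a change of -0.11, and Tpx2, which activates it on spindle microtubules, -0.040.

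The chromosomal passenger complex corrects wrong attachments at the centromere and then directs cytokinesis. Its kinase Aurkb had 9.85 and 9.93 log2 in control and 9.62 and 9.70 in NC06 cells, a change of -0.23 (SE 0.083, 95% interval -0.46 to -0.009, adjusted p = 0.317). The scaffold Incenp and the targeting subunit Cdca8, or borealin, had changes of -0.13 and -0.15, and in these 3 genes the groups did not overlap. Without NC06 replicate 1 the change of Incenp was -0.079, and without NC06 replicate 2 that of Cdca8 was -0.099. Birc5, which encodes survivin, the subunit that binds the centromeric histone mark, had 8.98 and 8.83 in control and 8.88 and 8.90 in NC06 cells. Its NC06 values lay between the control values, with a change of -0.011 (95% interval -0.26 to 0.23).

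Of the spindle assembly checkpoint, which delays anaphase, all 5 genes had both NC06 arrays below both control arrays, beside 35.1% of the brighter genes. Their median change was -0.16 log2. Mad2l1, which encodes the MAD2 protein that sequesters CDC20, had 10.16 and 10.11 in control and 9.88 and 9.86 in NC06 cells, a change of -0.27 (SE 0.077, 95% interval -0.47 to -0.061, adjusted p = 0.267). Bub1b, which encodes BUBR1, its partner in the mitotic checkpoint complex, had 9.85 and 9.82 against 9.51 and 9.63, also a change of -0.27 (SE 0.085, adjusted p = 0.290). Both lay at an unadjusted p under 0.05. Ttk, the kinase MPS1 that starts the signal at unattached kinetochores, had a change of -0.16 (SE 0.077). Bub1, the kinase that marks the centromere for shugoshin, had a change of -0.046. Bub3, the adaptor that brings BUB1 and BUBR1 to kinetochores, read 11.28 in both control samples, its NC06 values were 11.26 and 11.23, and its change of -0.036 had a 95% interval from -0.24 to 0.17.

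Centromere and kinetochore genes held the lowest change of the module and some of its smallest. Spc24, a subunit of the NDC80 complex, which binds spindle microtubules at the outer kinetochore, had 9.52 and 9.41 log2 in control and 9.004 and 8.97 in NC06 cells. The group means were 9.47 ± 0.074 and 8.99 ± 0.026 (SD, n = 2), and the change was -0.48, or 0.717-fold (SE 0.083, 95% interval -0.70 to -0.26). It had the smallest p of the module, with an adjusted p of 0.191. Ndc80, the subunit that contacts the microtubule, had 10.21 and 10.13 in control and 9.78 and 9.82 in NC06 cells, a change of -0.37, or 0.772-fold (SE 0.080, 95% interval -0.59 to -0.16, adjusted p = 0.221). The distance between the groups was several times the gap between arrays of a group in both genes.

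The other subunits of the same complex, which in the cell form pairs with these, had smaller changes. Nuf2, the partner of NDC80, read 10.46 and 10.43 in control and 10.44 and 10.40 in NC06 cells, with overlap and a change of -0.027 (95% interval -0.23 to 0.18). Spc25, the partner of SPC24, read 8.58 and 8.54 in control and 8.52 on both NC06 arrays, a change of -0.047 (95% interval -0.25 to 0.16). The change of Spc24 was lower than that of Spc25 by a difference of -0.43 log2. Relative to its control mean, the difference between these genes was -0.41 and -0.45 on the NC06 arrays and 0.032 to either side of 0 on the control arrays. For Ndc80 against Nuf2 the difference of changes was -0.35. Such differences were computed for 6 pairs of partners. The others were Bub1b against Bub3 (-0.23), Aurkb against Birc5 (-0.22), Smc4 against Smc2 (-0.20) and Ccnb2 against Ccnb1 (-0.11). In each of the 6 both NC06 arrays were on one side of both control arrays. The pairs were chosen after their values had been seen, and no test is given. The order of Ndc80 below Nuf2 and of Spc24 below Spc25 was the same after quantile normalization and median centring, and after quantile normalization the change of Spc25 was 0.001.

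Cenph, a subunit of the constitutive centromere network, had 8.45 and 8.60 in control and 8.32 and 8.28 in NC06 cells, a change of -0.23 (SE 0.091, adjusted p = 0.352), which was -0.15 without control replicate 2. Its partner Cenpk had a change of -0.089. Cenpa, the histone H3 variant that marks the centromere, had a change of -0.077 (SE 0.077). The groups did not overlap in these 3 genes. They overlapped for Cenpf, a large protein of the corona of the kinetochore, with a change of -0.059, and for the kinesin Cenpe, with a change of 0.046, of which NC06 replicate 2 alone lay above the control arrays.

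The 4 genes of cohesion release and anaphase had the lowest median of the 7 roles, -0.23 log2. In each the groups did not overlap, on the lower side, beside 35.1% of the brighter genes. Sgo1, or shugoshin 1, which protects centromeric cohesin until anaphase, had 8.11 and 8.17 in control and 7.77 and 7.83 in NC06 cells, a change of -0.34, or 0.790-fold (SE 0.080, 95% interval -0.56 to -0.13, adjusted p = 0.238). Cdc20, the activator of the anaphase-promoting complex that the checkpoint inhibits, had 10.40 and 10.38 against 10.09 and 10.25, a change of -0.22 (SE 0.093, adjusted p = 0.366). Espl1, the protease separase that cuts cohesin, had a change of -0.24 (SE 0.10), and its inhibitor Pttg1, or securin, had a change of -0.13 (SE 0.074). For Cdc20 and Espl1 NC06 replicate 1 was the lower of the NC06 arrays, and without it the changes were -0.14 for each.

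Condensin and chromosome structure genes had the smallest median, -0.039 log2 over 6 tested genes. Of these 4 were negative, beside 55.5% of the brighter genes, and 3 were lower without overlap of the groups, beside 35.1%. Smc4, an ATPase of both condensin complexes, had 10.93 and 10.84 in control and 10.59 and 10.73 in NC06 cells, a change of -0.22 (SE 0.092, adjusted p = 0.361). Its partner Smc2 had a change of -0.026 (95% interval -0.23 to 0.18). The condensin I subunits Ncaph and Ncapd2 had changes of -0.15 and -0.053. The probe set listed for Ncapg and Lcorl together read 8.63 and 8.71 in control and 8.55 and 8.54 in NC06 cells, a difference of -0.12, and with it in the fit the module's median was -0.13. Top2a, the topoisomerase that untangles sister chromatids, had a change of 0.004 (95% interval -0.23 to 0.24).

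Mki67, which encodes the proliferation marker Ki-67 that coats mitotic chromosomes, had the highest change of the module. Its signal was 10.85 and 10.74 log2 in control and 10.72 and 11.03 in NC06 cells, so that the NC06 arrays lay on either side of the control arrays. The change was 0.076 (SE 0.13, 95% interval -0.28 to 0.44, adjusted p = 0.825), and without NC06 replicate 2 it was -0.078.

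Among motors of the spindle and genes of cytokinesis 4 of 8 had groups without overlap, all lower in NC06 cells, beside 35.1% of the brighter genes. The median was -0.095 log2. Kif2c, the kinesin MCAK that depolymerises microtubules at centromeres, had 9.94 and 9.90 in control and 9.74 and 9.71 in NC06 cells, a change of -0.20 (SE 0.076, adjusted p = 0.337). Prc1, which bundles the microtubules of the midzone, had a change of -0.16, Kif11, the motor that separates the spindle poles, -0.15, and Anln, the anillin scaffold of the contractile ring, -0.13. In the other genes of this role the groups overlapped, with changes of Kif4 at -0.059, Kif23 at -0.024, Kif20a at 0.017 and Ect2 at -0.012. Ect2, which activates RhoA at the furrow, read 11.44 in both control samples, and its NC06 values were 11.41 and 11.44.

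**Figure D4:**
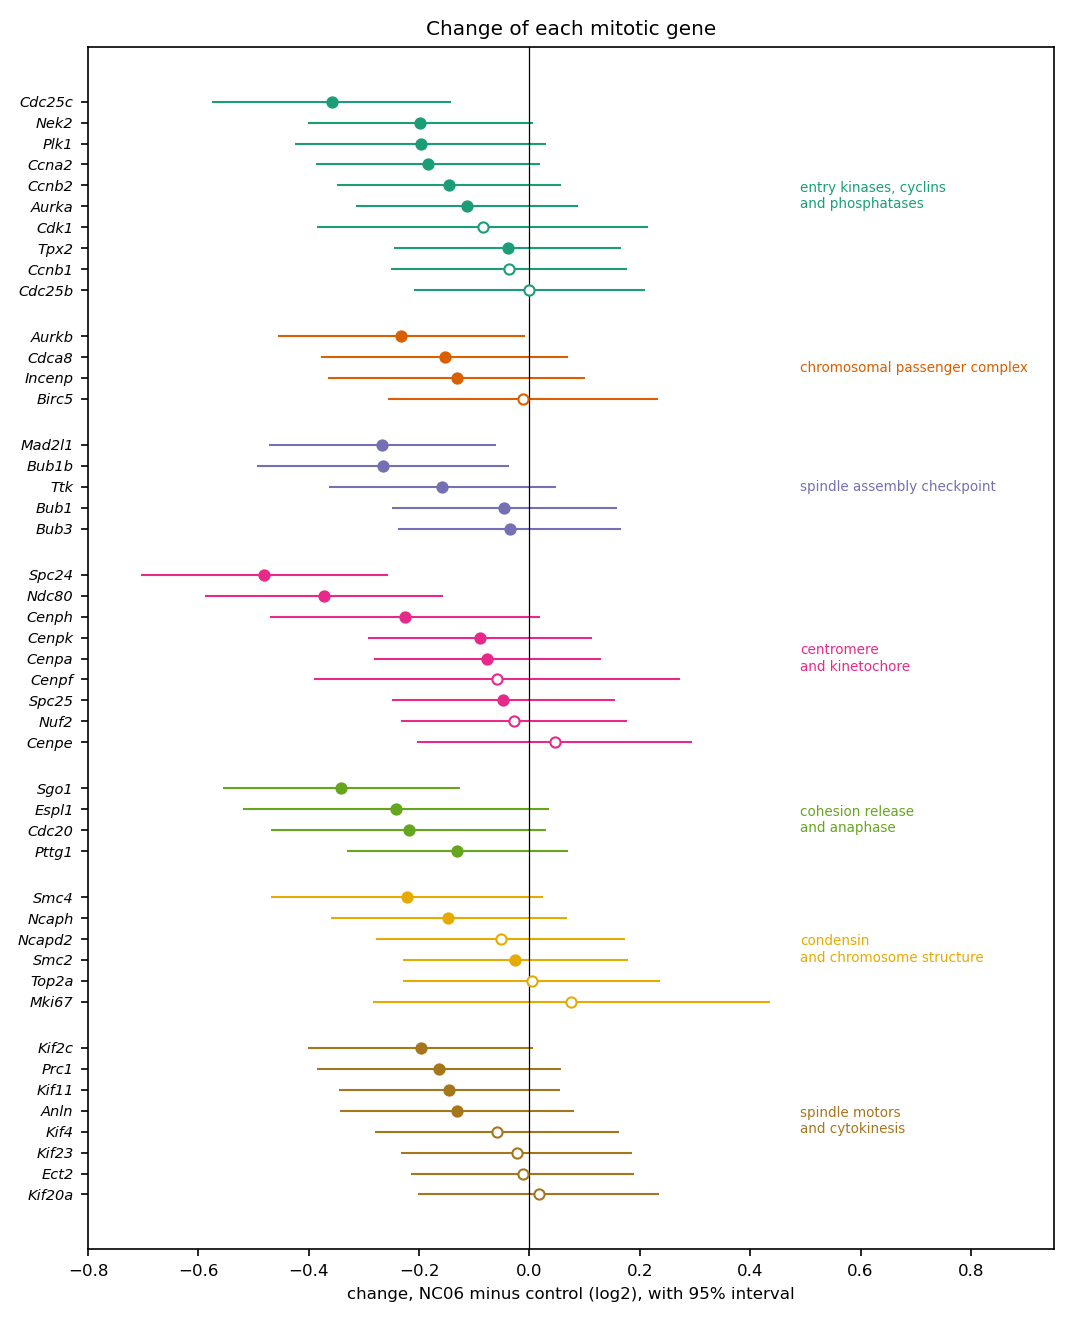
Change of each mitotic gene between NC06 and control in log2 with its 95% interval from the limma fit, grouped by role. Filled points mark genes in which the 2 NC06 arrays did not overlap the 2 control arrays, and open points those in which they did. The intervals of 7 genes exclude 0, all on the lower side, led by Spc24 at -0.48.

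Signal and promoter letters were set against the size of the change, as descriptions. Genes with more signal had slightly less negative changes (Pearson's r = 0.257, Spearman's rho = 0.276 across the 46 genes, which share their arrays). The 8 tested genes without a promoter sequence are missing from the comparison of letters. Their changes ran from -0.48 log2 for Spc24 and -0.36 for Cdc25c to 0.017 for Kif20a. The 25 tested genes with the CHR letters had a median of -0.11 log2, with 17 lower without overlap. The 13 with a promoter but no CHR letters had a median of -0.089, with 8 lower without overlap. Groups were apart on the lower side in 69.6% of the 46 genes and in 35.1% of the brighter genes. The 30 with a CCAAT box had a median of -0.081 and the 8 without it -0.14.

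Other genes of division were counted from 9 lists. In 8 lists of mitosis and its control, 107 genes were measured, with a median change of -0.13 log2, and 88 were negative, beside 55.5% of the brighter genes, among which all 107 lay. At an unadjusted p under 0.05, 24 were lower and 1 was higher, beside 11.2% and 8.89%, and 0 passed over all genes. The remaining kinetochore and centromere genes had a median of -0.23 over 23 genes, with 20 lower and 0 higher without overlap of the groups, beside 35.1% and 25.1%. Of these, Zw10 and Spdl1, which recruit dynein to kinetochores, had changes of -0.39 each (SE 0.078 and 0.082), and Cenpq, of the constitutive centromere network, -0.36. The subunits that condensin II does not share with condensin I, Ncaph2, Ncapg2 and Ncapd3, had changes of -0.14, -0.14 and -0.11, each without overlap, and without NC06 replicate 1 those of Ncapg2 and Ncapd3 were -0.091 and -0.049.

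Cohesin genes lay on both sides, 7 of 13 lower and 4 higher without overlap, beside 35.1% and 25.1% of the brighter genes. Their median of -0.086 was -0.045 without control replicate 2 and -0.051 without NC06 replicate 1. Stag1, a cohesin subunit, had a change of -0.43 (SE 0.081), Smc1a -0.24, and the cohesin loader Nipbl 0.20. Without NC06 replicate 1 the change of Smc1a was -0.14, and without NC06 replicate 2 that of Nipbl was 0.12. The anaphase-promoting complex and its enzymes had a median of -0.081 over 18 genes, with Cdc23 at -0.28, Anapc5 at -0.26 and the ubiquitin-conjugating enzyme Ube2s at -0.27. Other spindle and cytokinesis genes had a median of -0.056 over 19, which was -0.14 without NC06 replicate 2, -0.085 without control replicate 2, -0.038 without control replicate 1 and -0.028 after quantile normalization. Their smallest p-values were those of the kinesins Kif22 at -0.34, Kif15 at -0.25 and Kifc1 at -0.27, the last at -0.17 without control replicate 1. Other regulators of entry had a median of -0.13 over 12, with Bora, the activator of PLK1, at -0.39, and Cdca2 and Cdca3 at -0.21 each. DNA replication genes had a median of -0.11 over 39 genes, of which 26 were lower and 0 higher without overlap, beside 35.1% and 25.1%, with Pold2 at -0.62, Pold1 at -0.38 and Mcm10 at -0.29. The medians of the mitotic module and of the replication genes thus lay 0.02 log2 apart, and that difference was not tested. Their order turned with the mean of probe sets, at -0.131 for the module and -0.135 for the replication genes. Without NC06 replicate 1 these medians were -0.106 and -0.086.

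Transcription regulators of mitotic genes were read in the same way. All 16 measured genes of this list had a negative change, beside 55.5% of the brighter genes, with a median of -0.15 log2. In 13 the groups did not overlap, on the lower side, beside 35.1%, 7 were lower at an unadjusted p under 0.05, beside 11.2%, and 0 passed the adjusted threshold in limma. Foxm1, the activator of late cell cycle genes, had 8.98 and 9.10 in control and 8.76 and 8.75 in NC06 cells, a change of -0.28 (SE 0.084, adjusted p = 0.272). Mybl2, which encodes B-MYB, had 11.23 and 11.19 against 10.86 and 10.94, a change of -0.31 (SE 0.080, adjusted p = 0.247). Lin54, the MuvB subunit that contacts the CHR, had 7.62 and 7.66 against 7.35 and 7.46, a change of -0.23 (SE 0.084). The NF-Y subunits Nfyb and Nfyc had changes of -0.46 (SE 0.095) and -0.37 (SE 0.079), and the remaining subunit Nfya had -0.14 (SE 0.080). Parts of the repressor DREAM were read too. E2f4 had a change of -0.27 (SE 0.075), and Rbl2, which encodes p130, had -0.0045 (SE 0.088) with overlapping groups.

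The inhibitors of cyclin-dependent kinases differed among themselves. Cdkn1a, the p53 target p21, read 10.91 and 10.95 log2 in control and 11.55 on both NC06 arrays, a change of 0.62, or 1.54-fold (SE 0.075, 95% interval 0.42 to 0.82, adjusted p = 0.128). Cdkn1b and Cdkn1c had changes of -0.13 and 0.075 with overlapping groups, which ran from -0.22 to -0.048 and from -0.0026 to 0.15 when 1 array was left out. Cdkn1a was higher on both NC06 arrays while the mitotic genes with non-overlapping groups were lower on them, and no relation between the genes was tested.

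**Figure D5:**
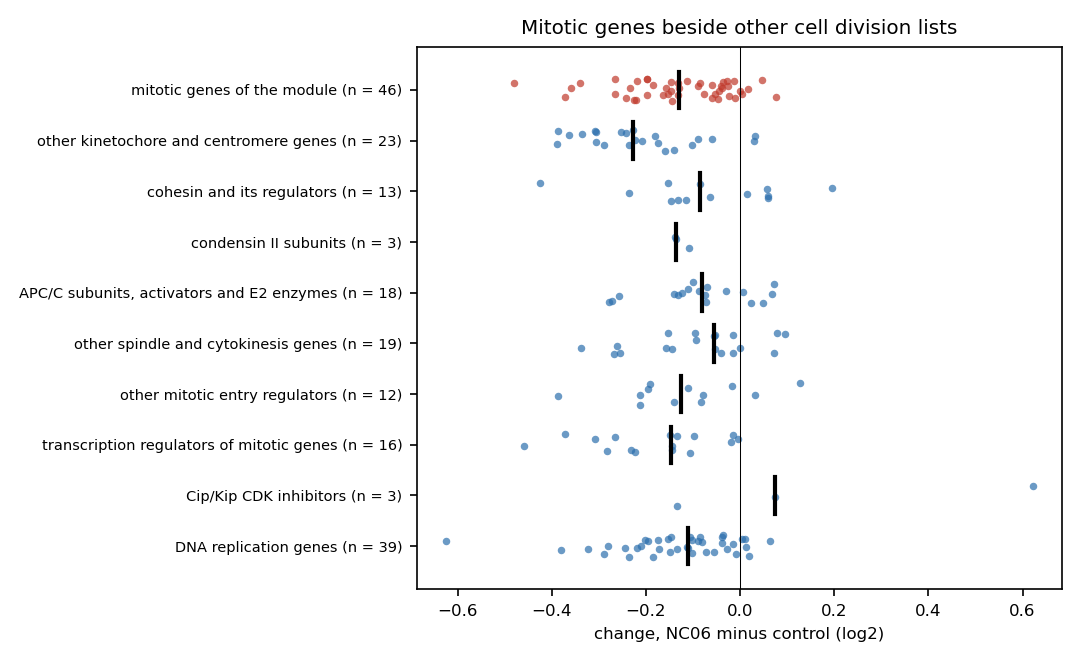
Change between NC06 and control in log2, horizontal axis, of each gene of the mitotic module and of 9 other lists of cell division. Points are genes, and black bars are medians. The median is -0.13 in the module and -0.23 in the remaining kinetochore and centromere genes, and the single point at 0.62 is Cdkn1a.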

How the data were processed

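RNA from 4 samples of J774M cells was measured on whole-transcript arrays, 1 array per sample, and the sample titles gave the groups and the replicate numbers. Trizol was used to extract RNA and biotin to label it, per the labels' protocols. The authors deposited 1 log2 value for each probe set, and the submitters' processing notes name Partek. How background was corrected and values were normalized and summarized is not given in the sources used here, and no further scaling was applied. The authors' deposited table holds a ratio (NC06 over control), which on the log2 scale equalled the differences of the value table within 8.8e-05, and a p-value, which matched an unpaired equal-variance test with a median deviation of 5.4e-06. Of 41345 probe sets 27832 were named, 23521 by the platform annotation as a single gene and 4311, among them that of Ccnb1, from the authors' deposited table, and taking for each gene its probe set of highest mean gave 26246 genes. Symbols were updated through RefSeq. The median signal over all probe sets was 4.67 to 4.68 log2 on the control and 4.74 to 4.75 on the NC06 arrays. The number of arrays limits the precision.

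Differences were tested with limma 3.58.1 in R 4.3.3 (lmFit and eBayes, two-sided, 2 residual and 2.36 prior degrees of freedom) with Benjamini-Hochberg adjustment over all 26246 genes. The script was tested on simulated data. Members and gene lists were chosen with earlier results of these data known. The rule for named genes took values on every array for the 12 members with the smallest p, the member with the highest change and the brightest member of each role, the 3 genes with the smallest p of each other list, and 4 regulators. Other members were named with their changes, and Cdk1, Cdc25b, Birc5 and Spc25 were given on every array after their values had been seen. Nfya, E2f4 and Rbl2 were also named after their values had been seen. The summaries were made with Python 3.11.15, pandas 2.3.3 and numpy 2.4.6, and the figures with matplotlib 3.10.9. Alternatives were quantile normalization, median centring, 2 filters on dim genes, a trended and robust prior, the mean of probe sets, names from the platform alone, the replicate number as a block, the deposited ratios and p-values, and leaving out each array. The fit with the shared Ncapg probe set was an addition chosen after seeing the data.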

Additional observations from a re-analysis of the deposited data

How the results depend on the processing

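The precision is limited by 2 arrays per group. Of the 46 genes, 34 had a negative change in the fit as reported and in each of the 14 alternatives that held them (Ccnb1 has no platform name), among them Spc24 (-0.54 to -0.43), Ndc80 (-0.43 to -0.33), Cdc25c (-0.41 to -0.31) and Sgo1 (-0.40 to -0.29). Only quantile normalization, median centring and leaving out an array could alter the change of a member. The other alternatives left it as reported, up to rounding, and say nothing about its sign. Members past an adjusted p of 0.05 numbered 7 with the trend and robust prior (Spc24, Ndc80, Cdc25c, Sgo1, Mad2l1, Bub1b and Ccna2) and 3 once genes under the median signal were left out (Spc24, Ndc80 and Cdc25c), and 0 in the other alternatives. Members lower at an unadjusted p under 0.05, 7 as reported, numbered 23 with that prior, 16 once dim genes were left out and 15 by the deposited p-values. They numbered 14 after median centring and 11 without the lowest signal quartile. In each of these 0 were higher. The share of all genes at that p was not counted after median centring, without the lowest signal quartile or when an array was left out. The median change was -0.19 after median centring, -0.094 after quantile normalization and -0.15 to -0.11 when an array was left out. Centring put the median of all genes at -0.054. Genes with groups apart on the higher side, 0 as reported, numbered 1 to 4 when an array was left out, a looser criterion with 3 arrays, and those on the lower side 35 to 40. The share of other genes that met this looser criterion was not counted, and the shares given for 4 arrays do not apply to it. Over the other mitosis lists the median was -0.19 after median centring, -0.083 after quantile normalization and -0.16 to -0.10 when an array was left out, and the lower genes at an unadjusted p under 0.05, 24 as reported, numbered 51 with the trend and robust prior and 8 to 16 when an array was left out. The sources used here do not say whether same-numbered arrays were handled together. Over all probe sets the difference between the control arrays and that between the NC06 arrays correlated at 0.005, which does not settle it. With the replicate number as a block 5 members and 19 genes of the other mitosis lists were lower at an unadjusted p under 0.05, and 0 members passed the adjusted threshold. The share of all genes at that p was not counted for the block fit.

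Signs changed for genes near 0. After quantile normalization the change was 0.0395 for Cdc25b, 0.0002 for Tpx2, 0.013 for Birc5, 0.001 for Spc25 and 0.015 for Kif23. After median centring it was -0.0099 for Cenpe, -0.052 for Top2a and -0.039 for Kif20a. When an array was left out, the change ran from -0.20 to 0.033 for Cdk1, from -0.036 to 0.035 for Cdc25b, from -0.088 to 0.066 for Birc5, from -0.036 to 0.13 for Cenpe, from -0.16 to 0.044 for Cenpf, from -0.058 to 0.066 for Top2a, from -0.078 to 0.23 for Mki67, from -0.020 to 0.054 for Kif20a, from -0.056 to 0.0088 for Kif23, from -0.030 to 0.0063 for Ect2 and from -0.0026 to 0.15 for Cdkn1c. The cause was not tested.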
